A study of Mus musculus with 12 samples.

Results

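The guanylate-binding proteins and immunity-related GTPases are large GTPases that interferons induce in macrophages, and the 10 mouse genes described here (Gbp2, Gbp3, Gbp5, Gbp6, Gbp7, Gbp9, Irgm1, Irgm2, Igtp and Iigp1) were chosen by gene symbol out of 23997 genes listed in every library. Each symbol matched 1 row in all 12 libraries. The rule that picks them uses the symbol and no measured value, but the family was taken up with earlier results of these data known.

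Bone marrow-derived macrophages (BMDMs) from wild-type (WT) and Pim1-/- mice were studied untreated (0 h) or 4 h after 100 ng/ml lipopolysaccharide (LPS), the Gram-negative cell wall ligand of TLR4, with 3 libraries in each of the 4 groups. The mice were male, on the C57BL/6 background and 8 to 10 weeks old, and the Pim1-/- strain was made by CRISPR-Cas9 deletion in the germ line, so every cell type of these mice carried the deletion. Bone marrow was kept in culture for 1 day, after which the cells that had not adhered were grown for 7 days with 10 ng/ml recombinant human M-CSF. The sources used here do not say whether the 3 libraries of a group came from separate mice or separate cultures, so the p-values measure the spread between these libraries, which may be technical. The comparisons ask how the lack of Pim1, a serine/threonine kinase, altered the GTPase transcripts in resting macrophages and in macrophages that had met LPS.

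Guanylate-binding proteins assemble on bacteria and on the membranes of vacuoles that hold microbes, and they help to expose microbial products to cytosolic sensors. The immunity-related GTPases fall into effectors such as Iigp1, which load onto the vacuole of parasites such as Toxoplasma and disrupt it, and regulators (Irgm1, Irgm2 and Igtp, also called Irgm3), which hold the effectors inactive on the membranes of the host cell. Both families are induced by interferon-gamma, in which IRF1 takes part, and through the type I interferon receptor and ISGF3 by interferon-beta, which macrophages release after TLR4 engagement.

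By the GENCODE annotation of mouse build GRCm38 (mm10), the 10 genes lie in clusters. Gbp5 (chr3:142493978-142522344), Gbp7 (chr3:142530342-142550149), Gbp3 (chr3:142560026-142573209) and Gbp2 (chr3:142620602-142638008) follow each other on the plus strand of chromosome 3. Gbp9 (chr5:105077630-105139539) and Gbp6 (chr5:105270702-105293698) are on the minus strand of chromosome 5. Irgm1 (chr11:48861968-48871683, minus strand) and the overlapping plus-strand genes Igtp (chr11:58199556-58207591) and Irgm2 (chr11:58199618-58222782) are on chromosome 11. All 10 are annotated as protein coding.

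The stretches before the RefSeq transcription starts are shown because ISGF3 and the IRF factors bind the interferon-stimulated response element (ISRE) and because the gamma-activated site (GAS) is the DNA element of the interferon-gamma response. The RefSeq table for GRCm38 held the 250 bases before the start of 7 of the 10 genes, all but Gbp6, Gbp9 and Iigp1. The letters searched were GAAA, 2 free bases and GAAA, or on the other strand TTTC, 2 free bases and TTTC, for the ISRE and TTCNNNGAA, which reads the same on both strands, for the GAS. Capitals in the sequences mark matches to either, each sequence is written 5′ to 3′ on the strand of its gene, and flanks are short where an annotated GENCODE exon begins upstream of the RefSeq start.
Gbp5, chr3:142496739-142496808, plus strand: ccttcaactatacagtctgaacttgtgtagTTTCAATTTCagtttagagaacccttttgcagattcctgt
Gbp7, chr3:142530200-142530322, plus strand: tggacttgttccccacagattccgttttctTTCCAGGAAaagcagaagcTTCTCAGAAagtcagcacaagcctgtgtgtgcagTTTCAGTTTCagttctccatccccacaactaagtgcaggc
Gbp3, chr3:142559969-142560043, plus strand: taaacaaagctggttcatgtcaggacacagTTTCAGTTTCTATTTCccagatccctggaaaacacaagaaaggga
Gbp2, chr3:142620586-142620631, plus strand: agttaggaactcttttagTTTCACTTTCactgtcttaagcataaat
Irgm1, chr11:48871428-48871457, minus strand: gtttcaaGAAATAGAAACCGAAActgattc
Igtp, chr11:58199481-58199555, plus strand: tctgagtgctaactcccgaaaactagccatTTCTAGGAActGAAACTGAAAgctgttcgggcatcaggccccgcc
Irgm2, chr11:58214872-58214952, plus strand: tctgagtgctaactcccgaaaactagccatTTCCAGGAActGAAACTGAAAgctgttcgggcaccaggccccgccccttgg

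The ISRE letters occurred before the RefSeq start of 7 of these 7 genes, against 2.98% of 32851 mouse promoters of the same length and 3.47% of the 8121 tested genes with a promoter in the table. In Gbp2 and Irgm1 the matches lie in an annotated GENCODE exon, as do 30 of the 46 and 30 of the 30 bases shown. In the 4 Gbp genes of chromosome 3 the match read in the TTTC orientation on the gene's strand, and in the 3 genes of chromosome 11 it read in the GAAA orientation. Gbp3 and Irgm1 each carried 2 overlapping matches. The GAS letters occurred in 4 of 7 (Gbp5, Gbp7, Igtp and Irgm2), against 7.02% of all promoters; those of Gbp5, at 245 to 237 and 52 to 44 bases before the start, are outside the stretch shown. In Igtp and Irgm2 the GAS match ended 2 bases before the ISRE match. Upstream of Igtp and Irgm2, 194 of 215 aligned bases (90.2%) were identical. Among the other genes of these families that the files list, 10 had a promoter in the table, of which 5 held the ISRE letters and 4 the GAS letters. These matches describe letters in a window and are not evidence of binding in these cells.

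The targeted gene was lower in the libraries labelled Pim1-/- but was not absent. Pim1 was 21.5, 22.3 and 25.0 FPKM (fragments per kilobase of transcript, divided by a scale factor of the library) in untreated WT libraries and 8.00, 8.70 and 9.51 in untreated Pim1-/- libraries. After LPS it was 630, 641 and 665 against 205, 216 and 236 FPKM. The groups did not overlap at either time, and reads from the part of the gene outside the deletion cannot be told apart in these values. Macrophage markers (Csf1r, Cd14, Cd68, Lyz2, Itgam, Mertk and Fcgr1) were detected in all libraries, with a summed level of 27627 to 29671 FPKM in untreated WT, 14250 to 15165 in untreated Pim1-/-, 30319 to 30790 in WT after LPS and 15630 to 17480 in Pim1-/- after LPS. Lyz2 made up most of these sums, with untreated means of 26301.5 FPKM in WT and 13296.8 in Pim1-/-. Untreated Cd14 was at 95.7% ± 3.2 and Cd68 at 82.3% ± 2.8 (SE) of WT, while Csf1r was at 33.3% ± 1.7. Between genotypes 6 of these 7 markers were lower untreated and 7 of 7 after LPS, against 42.8% and 42.2% of all tested genes called lower. At each time 3 of them were more than 2-fold lower (Csf1r, Mertk and Fcgr1), against 3.37% and 5.15% of all tested genes. Relative to Actb 2 were lower and 4 higher after LPS, with a median of 0.47 where that of all tested genes was 1.01. The part of this marker difference in the results below was not tested, and in bulk RNA fewer cells of a type and less RNA per cell cannot be told apart.

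In untreated WT macrophages the regulators were the most abundant of the 10 transcripts. Irgm1 was 26.8, 27.8 and 27.1 FPKM in WT replicates 1 to 3, followed by Igtp at 8.71, 9.10 and 9.502, Irgm2 at 7.98, 8.22 and 8.43, and Gbp2 at 6.79, 8.11 and 7.60. Irgm1 alone held 41.5% of the summed level of the 10 genes, and its lowest library was above every library of any other member. At the low end stood Gbp5 (1.73 to 1.91 FPKM), which promotes assembly of the NLRP3 inflammasome, the effector Iigp1 (0.337 to 0.532) and Gbp6 (0.0717 to 0.132). Neighbours in the order of means whose libraries overlapped were Irgm2 with Gbp2 and Gbp9 with Gbp3. The same order of means held in untreated Pim1-/- libraries except that Gbp6 and Iigp1, whose libraries overlapped there, changed places.

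**Figure D1:**
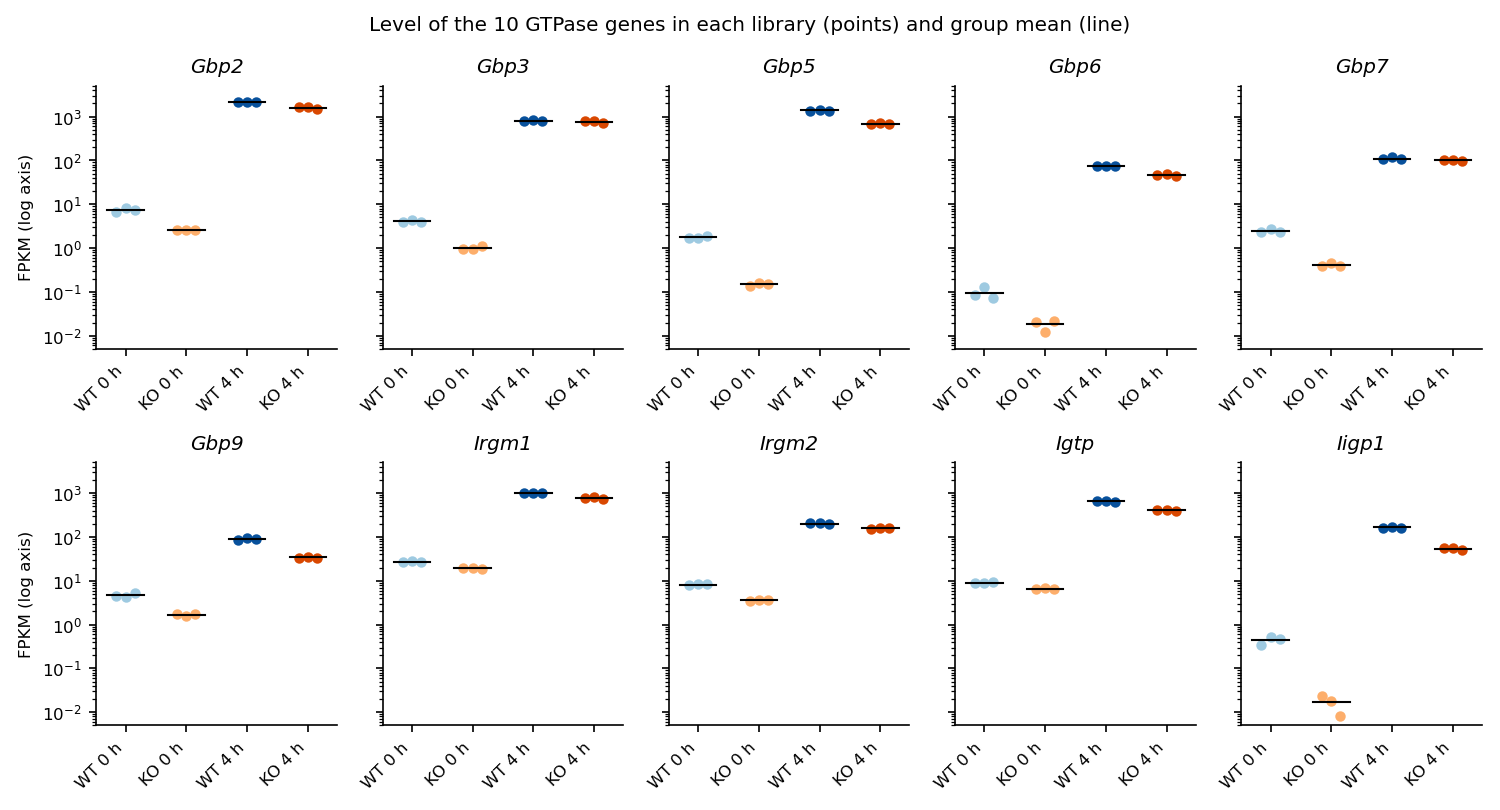
FPKM of each of the 10 genes on a log axis, 1 point per library and a line at the group mean of 3 libraries, for untreated (0 h) and LPS-treated (4 h) WT and Pim1-/- (KO) macrophages. Every LPS library lies above every untreated library in all 10 panels, and the untreated KO points lie below the untreated WT points.

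All 10 genes were lower in untreated Pim1-/- than in untreated WT macrophages, with no overlap between the 3 libraries of each genotype, on the deposited scale and with the sign kept under every scaling tried. For comparison, 44.2% of the 10581 tested genes were lower without overlap. By limma on log2(FPKM + 1), 6 of the 10 passed the rule of more than 2-fold at p below 0.05 and a false discovery rate (FDR) below 0.1, against 3.37% of tested genes called lower, and 9 of 10 passed without the fold threshold, against 42.8%. The median log2 difference of the 10 genes was -1.04, where that of all tested genes was -0.053.

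Among the chromosome 3 cluster, Gbp2, which is prenylated and attaches to vacuole membranes, was 6.79, 8.11 and 7.60 FPKM in WT and 2.65, 2.56 and 2.58 in Pim1-/- macrophages. Every Pim1-/- library lay below every WT library, and the log2 difference was -1.24 ± 0.055 (SE, limma adjusted p = 1.6e-11). Gbp3 read 3.93, 4.41 and 4.04 FPKM in WT and 0.940, 0.932 and 1.11 in Pim1-/- (log2 difference -1.36 ± 0.054, limma adjusted p = 4.6e-12). Gbp3 had the largest difference on this scale of the 10. Gbp7, a guanylate-binding protein of the same cluster, read 2.30, 2.71 and 2.35 FPKM in WT and 0.398, 0.466 and 0.383 in Pim1-/- (log2 difference -1.28 ± 0.055, limma adjusted p = 1e-11). Within this cluster the farthest apart as a ratio was Gbp5, at 1.74, 1.73 and 1.91 FPKM against 0.139, 0.159 and 0.153. Its Pim1-/- mean was 8.35% ± 0.43 (SE) of the WT mean. Because the pseudocount of 1 is large against such levels, the log2 difference of Gbp5 came to -1.28 ± 0.040 (limma adjusted p = 2.5e-13), which understates the ratio.

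Gbp9 of the chromosome 5 cluster was 4.48, 4.23 and 5.28 FPKM in untreated WT and 1.70, 1.60 and 1.79 in untreated Pim1-/- macrophages, 36.4% ± 2.7 (SE) of WT (log2 difference -1.07 ± 0.065, limma adjusted p = 8.9e-10). Its neighbour Gbp6 was near the floor, with 0.0834, 0.132 and 0.0717 FPKM in WT and 0.0211, 0.0121 and 0.0221 in Pim1-/-. The Gbp6 groups did not overlap, but an estimated 1.95 to 3.90 fragments per library stood behind the Pim1-/- values. The difference of Gbp6 did not pass (log2 difference -0.11 ± 0.050, limma adjusted p = 0.070, its unadjusted value lying above 0.05), while it did with a pseudocount of 0.1 (log2 difference -0.71, limma adjusted p = 1.2e-05), with the replicate number as a block (limma adjusted p = 0.045) and under several other settings.

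The regulators differed less. Irgm1 was 26.8, 27.8 and 27.1 FPKM in WT and 19.8, 19.8 and 19.0 in Pim1-/-, 71.7% ± 1.3 (SE) of WT, and Igtp was 8.71, 9.10 and 9.502 against 6.34, 6.72 and 6.46, 71.5% ± 2.2 (SE) of WT. Both passed the test without reaching 2-fold (log2 differences -0.46 ± 0.044 and -0.43 ± 0.042, limma adjusted p = 1.6e-07 and 2.3e-07), but neither passed when the libraries were scaled to Actb, which itself fell by 0.36 in untreated Pim1-/- macrophages. Irgm2 was 7.98, 8.22 and 8.43 FPKM in WT and 3.47, 3.67 and 3.59 in Pim1-/-, 43.5% ± 1.0 (SE) of WT (log2 difference -1.01 ± 0.041, limma adjusted p = 6.5e-12). The effector Iigp1 was 0.337, 0.532 and 0.464 FPKM in WT and 0.0238, 0.0182 and 0.00827 in Pim1-/-, where an estimated 1.06 to 3.17 fragments per library stood behind the value. Its log2 difference of -0.50 ± 0.059 (limma adjusted p = 1.7e-06) was small only on the scale with the pseudocount of 1. The calls of more than 2-fold for Irgm2 and Gbp9 rested close to the threshold, and both were lost without untreated WT replicate 3, which left 4 of 10; that of Irgm2 was also lost without untreated Pim1-/- replicate 1 and with median-ratio scaling, and both with scaling to Actb.

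Treatment with LPS for 4 h raised all 10 transcripts in both genotypes under every scaling tried. In WT macrophages 10 of 10 rose more than 2-fold, against 20.1% of tested genes, with a median log2 response of 6.05 where the median of all genes was 0.0015. In Pim1-/- macrophages 10 of 10 rose, against 14.6% of tested genes, with a median of 5.75 against -0.013. The 3 LPS-treated libraries lay above the 3 untreated ones for all 10 genes in each genotype, as they did for 45.5% of tested genes in WT and 41.7% in Pim1-/-. Gbp6 and Iigp1 reached 1 FPKM in the LPS-treated libraries alone, so for these 2 genes passing the filter on low values already required a difference.

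Gbp2 became the most abundant member, at 2113, 2147 and 2117 FPKM in WT and 1648, 1640 and 1479 in Pim1-/- macrophages after LPS. It held 32.1% of the summed level of the 10 genes in WT and 34.3% in Pim1-/-. Gbp5 moved from the eighth place to the second in WT, with 1371, 1446 and 1372 FPKM, a 777-fold ± 29 (SE) rise over untreated WT (log2 response 8.97 ± 0.040, limma adjusted p = 9.3e-24). In Pim1-/- macrophages Gbp5 reached 695, 707 and 686 FPKM, a 4641-fold ± 190 (SE) rise from a far lower start (log2 response 9.24 ± 0.040, limma adjusted p = 5.5e-24). Gbp9 had the smallest rise of the 10 as a ratio, 19.2-fold ± 1.4 (SE) in WT and 20.0-fold ± 0.86 (SE) in Pim1-/- macrophages. The regulators Irgm1 and Irgm2 rose 36.9-fold ± 0.60 and 24.6-fold ± 0.48 (SE) in WT and 39.6-fold ± 1.4 and 44.0-fold ± 1.2 in Pim1-/-. Igtp rose 71.1-fold ± 1.8 (SE) in WT and 61.9-fold ± 1.7 in Pim1-/-. No fold is given for Gbp6 and Iigp1 in Pim1-/- macrophages, where the untreated values rest on so few fragments. Together the 10 genes made up 0.0137% ± 0.00060 (SD, n = 3) of the summed FPKM of untreated WT libraries and 0.785% ± 0.017 after LPS, and 0.00770% ± 0.00018 and 0.633% ± 0.018 in Pim1-/- libraries.

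After LPS, 9 of the 10 genes were still lower in Pim1-/- than in WT macrophages on the deposited scale, each with no overlap between libraries, while relative to Actb 9 of the 10 differences turned positive. Without overlap 41.8% of tested genes were lower. More than 2-fold lower were 3 of 10 (Iigp1, Gbp9 and Gbp5), against 5.15% of tested genes, and 9 of 10 were lower without the fold threshold, against 42.2%. The median log2 difference was -0.54 for the 10 genes and -0.033 for all tested genes. Actb itself read 8339, 7865 and 7984 FPKM in WT and 2848, 2786 and 3281 FPKM in Pim1-/- macrophages after LPS. Scaling to it moved the median of all genes to 1.01; relative to that shift the median of the 10 genes was -0.13.

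Iigp1 showed the largest difference after LPS, at 163, 172 and 162 FPKM in WT and 55.5, 56.7 and 49.8 in Pim1-/- macrophages. The Pim1-/- level was 32.6% ± 1.4 (SE) of WT (log2 difference -1.60 ± 0.059, limma adjusted p = 2.2e-12). Gbp9 read 86.0, 94.8 and 88.4 FPKM in WT and 32.4, 35.8 and 33.7 in Pim1-/-, 37.9% ± 1.6 (SE) of WT (log2 difference -1.37 ± 0.065, limma adjusted p = 3.8e-11). Gbp5 read 1371, 1446 and 1372 FPKM against 695, 707 and 686, 49.9% ± 0.99 (SE) of WT (log2 difference -1.003 ± 0.040, limma adjusted p = 5.4e-12). These 3 genes lie on 3 different chromosomes. The call of more than 2-fold for Gbp5 sat on the threshold and was lost without WT replicate 2 or without Pim1-/- replicate 3 of the LPS groups, which left 2 of 10.

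Igtp, at 648, 652 and 641 FPKM in WT and 410, 413 and 385 in Pim1-/- after LPS, was at 62.2% ± 1.4 (SE) of WT (log2 difference -0.68 ± 0.042, limma adjusted p = 8.1e-10). Gbp6 was 73.6, 74.7 and 73.1 FPKM against 46.5, 48.8 and 43.4, 62.7% ± 2.2 (SE) of WT (log2 difference -0.66 ± 0.050, limma adjusted p = 8.5e-09). For both, all 3 Pim1-/- libraries lay well below the WT libraries. Gbp2, Irgm1 and Irgm2 were at 74.7% ± 2.6, 77.1% ± 2.7 and 78.0% ± 1.9 (SE) of WT, with Irgm1 at 996, 1027 and 992 FPKM in WT and 779, 817 and 727 in Pim1-/-. Their log2 differences were -0.42 ± 0.055, -0.38 ± 0.044 and -0.36 ± 0.041 (limma adjusted p = 4e-06, 1.2e-06 and 1.2e-06).

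Gbp7 and Gbp3 stood apart from the other 8. Gbp7 was 108, 117 and 106 FPKM in WT and 101, 102 and 99.3 in Pim1-/- after LPS, so the groups did not overlap but were within a few FPKM of each other (log2 difference -0.13 ± 0.055, limma adjusted p = 0.045), a call that was lost without WT replicate 2, Pim1-/- replicate 1 or Pim1-/- replicate 3 and whose sign turned with quantile normalization or a common library sum. Gbp3 was 786, 817 and 788 FPKM in WT and 804, 798 and 715 in Pim1-/-, where the libraries overlapped and no difference was detected (log2 difference -0.05 ± 0.054, limma adjusted p = 0.44). The sign of the Gbp3 difference depended on the scaling and on Pim1-/- replicate 3, without which it was 0.01.

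**Figure D2:**
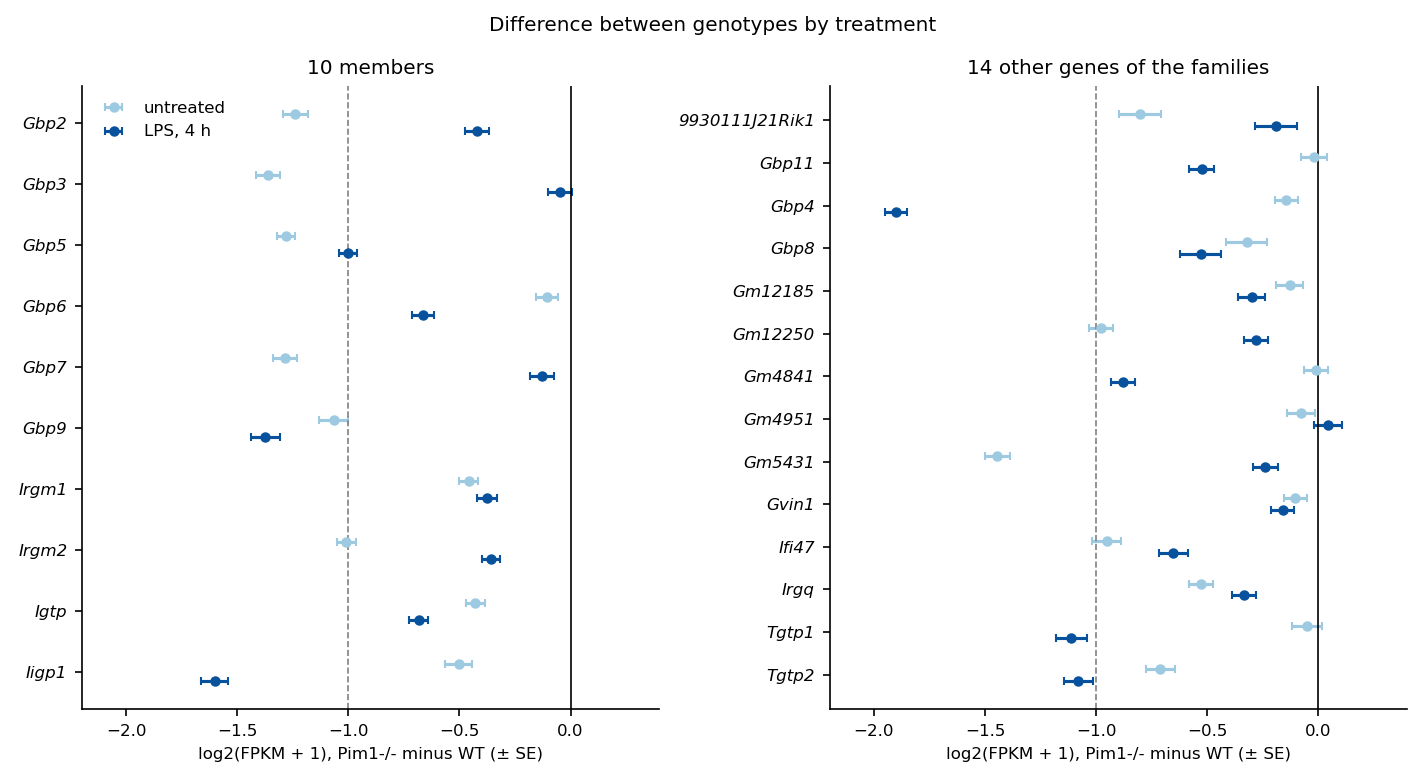
Log2 difference (Pim1-/- minus WT, log2(FPKM + 1), limma, bars are SE, 3 libraries per group) for the 10 genes on the left and 14 other genes of the families on the right, untreated in light and after LPS in dark. On this deposited scale Gbp2, Gbp3, Gbp7 and Irgm2 lie nearer to 0 after LPS than untreated, and Iigp1 lies farther away on this scale with a pseudocount of 1 although not as a ratio; relative to Actb 9 of the 10 members turn positive after LPS, and Gbp3 and Gbp7 also do so with quantile normalization or a common library sum.

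Set side by side as ratios of mean FPKM, 7 of the 8 members with enough signal in untreated Pim1-/- macrophages were nearer to the WT level after LPS than before on the deposited scale, Gbp9 among them by less than its SE, while relative to Actb 9 of the 10 members lay above WT after LPS. Gbp3 stood at 24.1% ± 1.7 (SE) of WT untreated and at 96.9% ± 3.8 after LPS, Gbp7 at 16.9% ± 1.4 and 91.4% ± 3.0, and Gbp5 at 8.35% ± 0.43 and 49.9% ± 0.99. Gbp2 stood at 34.6% ± 1.8 and 74.7% ± 2.6 and Irgm2 at 43.5% ± 1.0 and 78.0% ± 1.9. Gbp9 (36.4% ± 2.7 and 37.9% ± 1.6) and Irgm1 (71.7% ± 1.3 and 77.1% ± 2.7) moved little, and Igtp was the exception, at 71.5% ± 2.2 untreated and 62.2% ± 1.4 after LPS. For the 2 genes left out, the estimated fragments summed over the 3 untreated libraries were 10 in Pim1-/- against 47 in WT for Gbp6, or 20.1% of WT after division by the estimated scale factors (95% interval 9.03 to 40.2, counting error only), and 6 against 159 for Iigp1, or 3.56% (1.29 to 7.91), where the values after LPS were 62.7% and 32.6%.

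**Figure D3:**
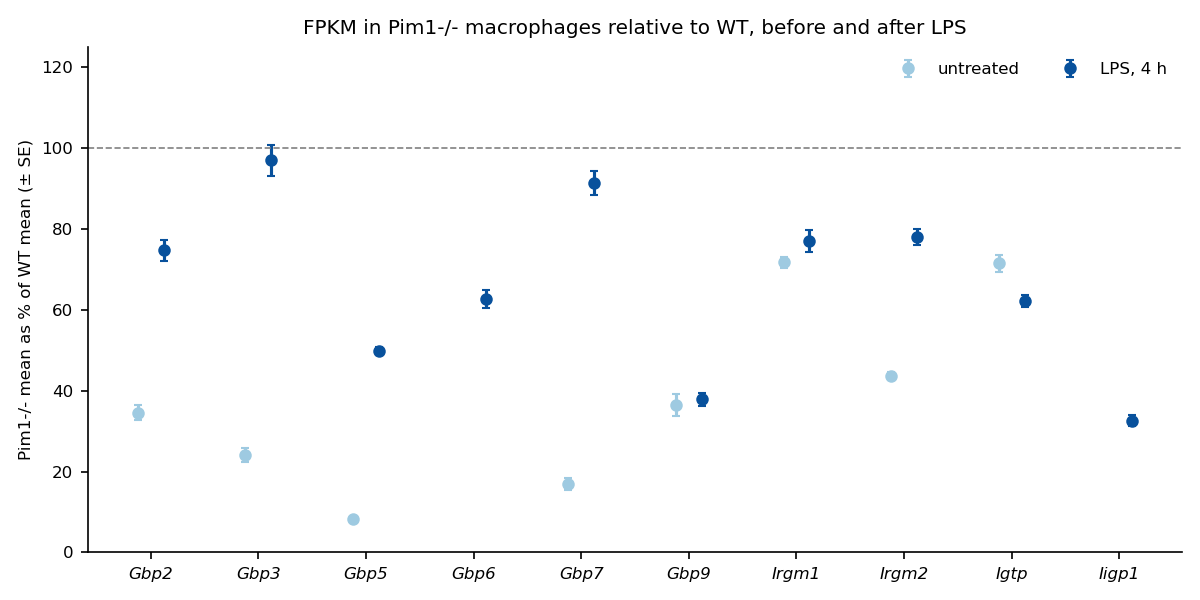
Mean FPKM in Pim1-/- macrophages as a percentage of the WT mean (bars are SE, 3 libraries per group), untreated in light and after LPS in dark, with a dashed line at the WT level. Of the 8 genes with both points, the 3 that moved most in percentage points, Gbp3, Gbp7 and Gbp5, belong to the chromosome 3 cluster. Gbp6 and Iigp1 have no untreated point because too few fragments were estimated in Pim1-/- cells. By those estimates Gbp6 of chromosome 5 stood at 20.1% of WT untreated, against 62.7% after LPS, and so moved about as far as Gbp5.

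The difference of the LPS response between genotypes was tested as the interaction of genotype and treatment. On log2(FPKM + 1) the response was larger in Pim1-/- macrophages for 5 of 10 genes, against 31.3% of tested genes, and smaller for 4 of 10, against 34.7%; past 2-fold were Gbp3 and Gbp7 in the first direction, against 2.24%, and Iigp1 in the second, against 4.43%. The median was 0.18 for the 10 genes and -0.0027 for all tested genes. Gbp3 responded more strongly by 1.31 ± 0.077 (SE, limma adjusted p = 1.4e-09), Gbp7 by 1.16 ± 0.077 (limma adjusted p = 6.3e-09), Gbp2 by 0.82 ± 0.077 (limma adjusted p = 2.8e-07) and Irgm2 by 0.65 ± 0.058 (limma adjusted p = 1.6e-07). These 4 kept their direction and their call under every scaling, filter and left-out library. For Gbp5 the response was larger by 0.28 ± 0.057 (limma adjusted p = 0.00058), and for Irgm1 no difference was detected (0.08 ± 0.062, limma adjusted p = 0.26).

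The smaller responses depended on how low values were treated. Iigp1 responded less by 1.10 ± 0.084 on the scale above (log2 difference of the response -1.10, limma adjusted p = 2.7e-08), but with a pseudocount of 0.1 the difference was 0.59 in the other direction (limma adjusted p = 0.0042). The values for Gbp6 and Gbp9 were -0.56 and -0.31 with a pseudocount of 1 and 0.04 and 0.0021 with 0.1, the latter both without a call. Of the smaller responses, that of Igtp (-0.26 ± 0.060, limma adjusted p = 0.0017), whose untreated levels are well above the pseudocount, kept its sign with a pseudocount of 0.1 but turned to 0.07 with quantile normalization. Scaled to Actb, all 10 responses were larger in Pim1-/- macrophages, with a median of 1.52 where that of all tested genes was 0.77. Actb itself rose 6.09-fold ± 0.11 (SE) with LPS in WT and 2.88-fold ± 0.16 in Pim1-/- macrophages. Scaling to it therefore shifts the response difference of every gene upward.

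**Figure D4:**
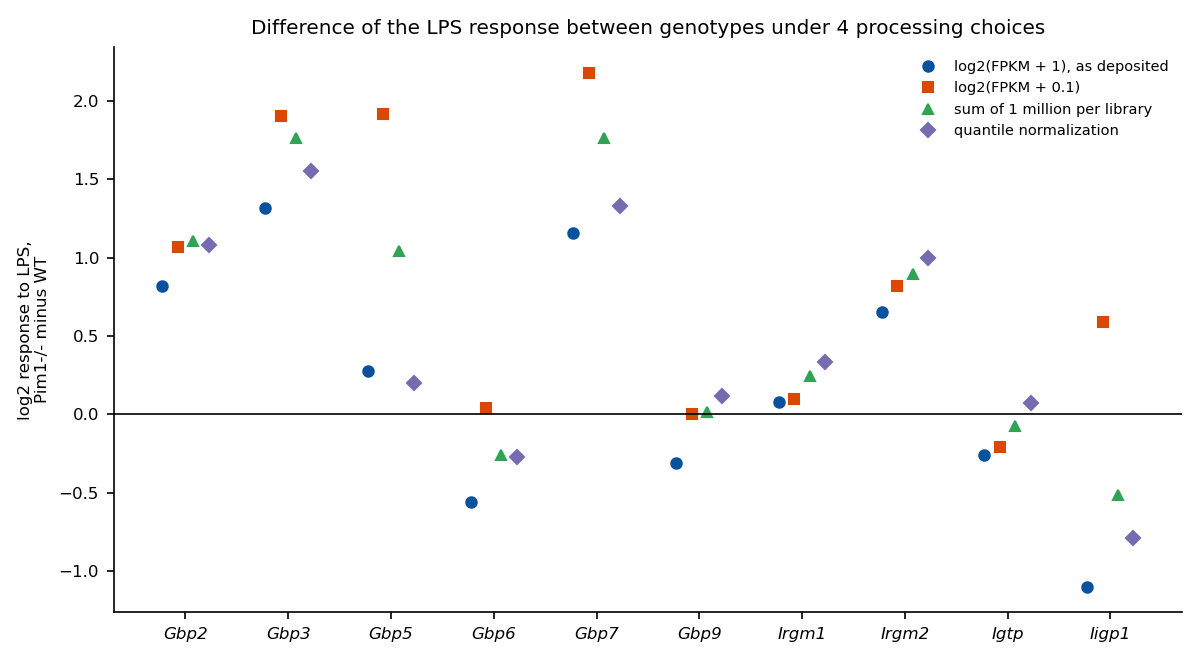
Log2 response to LPS in Pim1-/- minus that in WT for each of the 10 genes under 4 processing choices, 1 marker each (pseudocount of 1, pseudocount of 0.1, a common library sum and quantile normalization). Gbp2, Gbp3, Gbp5, Gbp7, Irgm1 and Irgm2 lie above 0 under all 4, while Gbp6, Gbp9, Igtp and Iigp1 change side or shrink with the pseudocount or the scaling.

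Across the 12 libraries the 10 genes moved together, with Pearson correlations of log2(FPKM + 1) between 0.968 and 0.999 over 45 pairs, which mostly reflect the LPS response that all share. The 5 genes outside the list whose pattern over the 12 libraries was most like the mean of the 10 were Ifih1 (r = 0.9999), the cytosolic RNA sensor MDA5, Nfkbia (r = 0.9998), the NF-kappaB inhibitor, Ifi47 (r = 0.9997), another immunity-related GTPase, and the Ifi200 family genes Ifi204 (r = 0.9997) and Mndal (r = 0.9996). The nearest genes of other families beside the clusters varied, and their differences were not tested. Above the chromosome 3 cluster, Gtf2b averaged 40.0 FPKM in untreated WT and 57.0 in untreated Pim1-/-, and 247 and 270 after LPS, and below it Pdlim5 averaged 23.7 and 20.1, and 39.9 and 38.9. Mrpl22, below Igtp, averaged 17.6 and 26.1, and 23.1 and 33.7. Lower means in Pim1-/- macrophages were found for Psme2b, above Irgm1, at 10.5 against 4.65 FPKM untreated and 31.8 against 26.5 after LPS, and for Smim3, above Iigp1, at 8.51 against 6.59 and 32.4 against 12.2. The other 5 neighbours (Abcg3, Lrrc8b, Trim7, Zfp692 and Chsy3) averaged under 4 FPKM in every group.

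Of the other guanylate-binding and immunity-related GTPases, 19 were listed in the files and 14 passed the filter on low values. After LPS 12 of the 14 were lower in Pim1-/- macrophages on the deposited scale and 0 were higher by limma, also at an unadjusted p below 0.05, against 42.2% of tested genes called lower and 36.4% called higher, with a median log2 difference of -0.43. Relative to Actb 1 of 13 was lower and 11 were higher, with a median of 0.72 where that of all tested genes was 1.01. More than 2-fold lower on the deposited scale were 3, against 5.15% of tested genes. Of these, Gbp4 alone stayed lower relative to Actb (-0.56). Gbp4, which lies beside Gbp9 on chromosome 5, was 24.2, 26.0 and 24.8 FPKM in WT and 5.98, 5.69 and 6.21 in Pim1-/- (log2 difference -1.90 ± 0.050, limma adjusted p = 5.1e-14). The effectors Tgtp1 and Tgtp2, near-identical copies on chromosome 11 whose reads can be split between them, had log2 differences of -1.11 ± 0.069 and -1.08 ± 0.066 (limma adjusted p = 8e-10 and 7.8e-10). Gm4841 reached 1 FPKM in the WT libraries after LPS alone, so it passed the filter through the group in which it is high and had to differ. Gm4951, an immunity-related GTPase gene of the same cluster as Iigp1 (chr18:60376027-60392634, plus strand), was 15.03, 16.4 and 15.2 FPKM in WT and 17.1, 16.7 and 14.5 in Pim1-/-, with no difference detected (limma adjusted p = 0.52), while Gm4841 and F830016B08Rik, which lie between Gm4951 and Iigp1, were at 30.9% ± 2.6 and 28.3% ± 3.5 (SE) of WT at levels under 2 FPKM. Untreated, 8 of the 14 were lower, against 42.8% of tested genes, and 1, Gm5431, more than 2-fold, against 3.37%. Gbp4, Gbp11, Tgtp1, Gm4841 and Gm4951 were near 0 in every untreated library.

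Reads of some members cannot be assigned with certainty. In the GENCODE transcripts, 67.3% of the 75-base stretches of Gbp6 also occur in another gene, mostly Gm43302, and 11.3% of those of Gbp7 do, mostly in Gm43802, neither of which is listed in the files. Igtp and Irgm2 share 162 exonic bases on the same strand, which is 8.01% of Igtp and 4.39% of Irgm2, and Gbp9 shares 60 with Gbp4 and Gbp8. Irgm1 and Iigp1 share none, and for Gbp2, Gbp3 and Gbp5 the share was 0.955%, 2.06% and 0.578%.

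Genes that carry the interferon signal to the family were mostly lower in Pim1-/- macrophages at both times on the deposited scale. Relative to Actb 1 of 17 was lower and 14 were higher after LPS, with a median of 0.73 where that of all tested genes was 1.01. Of the 17 tested genes 13 were lower after LPS and 14 untreated, against 42.2% and 42.8% of all tested genes, with medians of -0.70 and -0.53. On the deposited scale 6 were more than 2-fold lower after LPS, against 5.15% of all tested genes: the receptor chain Ifnar1, the kinase Jak1, the transcription factors Stat2, Irf7 and Irf8, and the feedback inhibitor Socs1. Irf1, which drives many Gbp genes, was at 39.6% ± 1.3 (SE) of WT untreated and 77.5% ± 0.59 after LPS. The 1 gene of the list that was higher was the ligand Ifnb1, named here after its values were seen, which was listed at 0 in all untreated libraries and at 9.52, 7.80 and 8.17 FPKM in WT and 15.1, 17.0 and 14.5 in Pim1-/- macrophages after LPS (log2 difference 0.80 ± 0.069, limma adjusted p = 3.9e-08). Ifng was listed at 0 in all 12 libraries.

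Of 8 genes of GBP-dependent cytosolic sensing 6 were lower in Pim1-/- macrophages after LPS on the deposited scale, against 42.2% of all tested genes. Relative to Actb 1 was lower and 6 were higher after LPS, with a median of 1.00 where that of all tested genes was 1.01. Il1b, the cytokine and the most abundant of them after LPS, was at 52.1% ± 2.2 (SE) of WT, Gsdmd, the pore-forming protein of pyroptosis, at 37.7% ± 1.1 and Pycard, the inflammasome adaptor, at 32.1% ± 1.1, while Casp4 was at 84.5% ± 3.4, Casp1 at 72.7% ± 2.6 and Nlrp3 at 75.5% ± 2.6. Untreated, 4 of the 8 were lower, near the 42.8% of all tested genes, and 3 were higher. The share of all tested genes called higher untreated is not given here. The median log2 difference of the 8 was -0.18 untreated, where that of all tested genes was -0.053. Pycard was then at 129% ± 3.8 and Casp1 at 116% ± 5.9 (SE) of WT. Of 12 autophagy genes, most of them of the conjugation system that loads these GTPases onto vacuoles, 5 were lower and 5 higher after LPS. These counts were near the 42.2% and 36.4% of all tested genes. Sqstm1, on the list but not part of the conjugation system, was at 209% ± 4.4 (SE) of WT. Relative to Actb all 12 were higher, with a median of 1.45 where that of all tested genes was 1.01. Of 5 genes of CaaX prenylation, which anchors Gbp2 and Gbp5 to membranes, 1 was lower and 3 were higher after LPS, against the same 42.2% and 36.4% (relative to Actb 5 of 5 were higher, with a median of 1.26). Of the atlastins, the relatives of the guanylate-binding proteins that shape the endoplasmic reticulum, 2 were tested and Atl2 was higher, at 139% ± 12 (SE) of WT.

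Markers of lymphocytes, a source of interferon-gamma, were low. Of 9 T and NK cell markers in the files, 5 (Cd3e, Cd3g, Cd8a, Ncr1 and Prf1) were listed at 0 in all 12 libraries, and the summed level was 4.83 to 5.399 FPKM in untreated WT, 0.668 to 0.698 in untreated Pim1-/-, 2.46 to 3.10 in WT after LPS and 0.542 to 0.961 in Pim1-/- after LPS, of which Cd4, also expressed by myeloid cells, made up most in WT. The NK marker Klrb1c went the other way, at 0.0981 to 0.159 FPKM in WT and 0.288 to 0.586 in Pim1-/- after LPS, and 0.0653 to 0.0842 and 0.186 to 0.286 untreated. The summed level of 4 B cell markers was 0.275 to 1.57 FPKM over all libraries. Neutrophil markers (6 in the files) summed to 1.501 to 1.85 FPKM in untreated WT, 3.20 to 4.21 in untreated Pim1-/-, 6.00 to 8.13 in WT after LPS and 3.59 to 6.13 in Pim1-/- after LPS, and 7 dendritic cell markers to 1.44 to 1.58, 0.791 to 1.01, 2.27 to 2.82 and 1.97 to 2.07 FPKM in the same order. The 5 stromal markers summed to 2.65 to 3.09, 0.786 to 1.05, 11.01 to 11.3 and 2.89 to 3.64 FPKM and so were lower in Pim1-/- libraries at both times. Their part in the result was not tested.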

How the data were processed

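The authors sequenced 12 stranded poly(A) libraries of mouse macrophages. The submitters' processing notes name bcl2fastq 2.20.0.422, cutadapt 1.18, TopHat2 2.0.13, Cuffdiff 2.2.1 and the build mm10. The deposited values, 1 per gene and library, carry no unit in their header and were read as FPKM from the tools named and the values, whose sums were 452511 to 489710 in untreated libraries, 713307 to 743912 in Pim1-/- and 837585 to 849323 in WT libraries after LPS. Read counts were not used here. For genes with 1 transcript, 66.8% to 79.2% of low values fell within 0.05 of a whole number of fragments (10% by chance, for an assumed fragment of 180 bases). This puts the scale factor of the deposited values at an estimated 20644000 to 45358000 fragments per library and gives the fragment numbers quoted. The scale factor need not be the sequencing depth. Median-ratio factors of the deposited values were 0.9957 to 1.0164, so the libraries were already near a common median-ratio scale. The fragment numbers are estimates and no count test was run on them.

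From the deposited FPKM, the 10581 of 23997 genes, all 10 members among them, that reached 1 FPKM in 3 or more libraries were fitted on log2(FPKM + 1) with limma 3.58.1 (R 4.3.3) with a mean-variance trend, all 4 groups in 1 model and Benjamini-Hochberg adjustment over all tested genes. A gene was called at p below 0.05 and FDR below 0.1, with or without a difference of more than 2-fold. Fold changes on this scale understate changes of low genes. Ratios are of group means of FPKM, with SE from the spread of both groups. The fit was tested on simulated data with known differences before use.

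Promoters were those of the RefSeq table for GRCm38, and gene positions and transcripts those of GENCODE for the same build. The alternatives tried were a pseudocount of 0.1, no filter, a filter of 5 FPKM, median-ratio scaling, quantile normalization, a common library sum, scaling to Actb, a replicate block, no trend, only the groups compared, and leaving out each of the 12 libraries. The text names all members, all other genes of the families in the files where their values matter, of each other list at most 4 genes of highest mean FPKM and those called more than 2-fold between genotypes after LPS, Pim1, Actb, the 5 genes most like the members and the nearest genes outside the clusters; Ifnb1 and Ifng were added after their values were seen. The members and lists were chosen with earlier results of these data known. Adgre1 was not matched by that symbol and was left out of the macrophage list.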

Additional observations from a re-analysis of the deposited data

Results flagged for a closer look

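In 9 of the 10 genes the response to LPS differed between Pim1-/- and WT macrophages by the test of the interaction itself (limma on log2(FPKM + 1), 3 libraries per group, FDR below 0.1), where 34.7% of all tested genes had a smaller and 31.3% a larger response in Pim1-/- macrophages. Larger responses in Pim1-/- macrophages were measured for Gbp3 (1.31), Gbp7 (1.16), Gbp2 (0.82), Irgm2 (0.65) and Gbp5 (0.28). Smaller ones were measured for Iigp1 (-1.10), Gbp6 (-0.56), Gbp9 (-0.31) and Igtp (-0.26). With a pseudocount of 0.1 the difference was positive for Iigp1 (0.59), and no call was left for Gbp6 (0.04) or Gbp9 (0.0021). The groups of 3 libraries were too small for a check of single libraries that stand apart.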

How the results depend on the processing

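Of the 10 alternatives beside the left-out libraries, only scaling to Actb reversed the median of the members, to 0.89 after LPS, where 0 members were lower by either rule, 5 were more than 2-fold higher and 8 higher without the fold threshold; the signs turned for Gbp2 (1.02), Gbp3 (1.39), Gbp5 (0.44), Gbp6 (0.75), Gbp7 (1.30), Gbp9 (0.042), Irgm1 (1.06), Irgm2 (1.0755) and Igtp (0.76). That scaling moved the median of all genes to 1.01 and put 5736 of 11233 tested genes more than 2-fold higher. Actb itself was lower in Pim1-/- libraries. After LPS, Gbp3 and Gbp7 turned to 0.18 and 0.14 with quantile normalization (2 called higher, median of the members -0.32) and to 0.16 and 0.077 with a common library sum (1 called higher, median -0.34, median of all genes 0.13). Untreated, the median was -1.45 with a pseudocount of 0.1, -1.12 with quantile normalization, -1.12 with a common sum and -0.99 with Actb. The median LPS response in the same order was 6.85, 5.54, 5.74 and 4.08 in WT and 8.11, 5.54, 6.06 and 5.63 in Pim1-/-.

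For the difference of the response, a pseudocount of 0.1 gave 0 members more than 2-fold lower and 4 higher, 1 lower without the fold threshold and a median of 0.70, with Gbp6 at 0.039, Gbp9 at 0.0021 and Iigp1 at 0.59. Of all 10581 tested genes 565 were more than 2-fold lower and 510 higher. Quantile normalization gave 0 and 2 lower by the 2 rules and a median of 0.27, with Gbp9 at 0.12 and Igtp at 0.071. The common sum gave 0 and 2 lower, 4 more than 2-fold higher (against 415 of 11125 tested genes) and a median of 0.57, with Gbp9 at 0.013. Actb gave 0 lower by either rule, 7 and 10 higher and a median of 1.52, with Gbp6 at 0.98, Gbp9 at 1.01, Igtp at 0.87 and Iigp1 at 0.83. Under that scaling 3413 of 11233 tested genes were more than 2-fold higher, and the median of all tested genes was 0.77. The cause was not tested. No filter, a filter of 5 FPKM, median-ratio scaling and no trend moved no count of members past 1.5 times in any comparison, nor did fitting only the groups compared, which was run for the 4 comparisons of 2 groups. The median-ratio factors were 0.9957 to 1.0164, so that scaling hardly changed the values and could move little.

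With 1 library left out, the median untreated was -1.06 to -0.99, and Gbp3 after LPS was -0.077 to 0.0081. Same-numbered libraries deviated together with correlations of -0.070 to 0.340 over 5416 genes of at least 10 FPKM on average, and of -0.103 to 0.683 over 3646 genes at that level in every library, a set examined after the block had been fitted. All 3 exceeded 0.1 in 2 of 4 comparisons over the second set and in 0 of 4 over the first. For LPS against untreated in Pim1-/-, each library was closest to its same-numbered one over both sets (0.080, 0.136 and 0.340, then 0.426, 0.541 and 0.683). Over the second set each library was also closest to its same-numbered one for Pim1-/- against WT, untreated and after LPS. For LPS against untreated in WT, replicate 1 was not. The main fit left the replicate number out, and whether the numbers pair libraries is not known. With the replicate number as a block, 3 and 6 members stayed more than 2-fold lower after LPS and untreated, the medians were -0.54 and -1.04, and the call that changed was Gbp6 untreated (limma adjusted p = 0.045), which was also gained with a pseudocount of 0.1, no filter, no trend, only the groups compared, the common sum, Actb and without Pim1-/- replicate 2 or 3 of the LPS groups.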
